A study of Mus musculus with 2 samples.

Results

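The AP-1 and immediate early genes examined here were 10 transcription factor genes chosen by name, namely Fos, Fosb, Fosl1 and Fosl2 of the FOS family, Jun, Junb and Jund of the JUN family, Atf3, and Egr1 and Egr2. All 10 were found among the 22911 genes that could be named on the array, with 14 probes. Of the 56604 probes on the array 32994 could be named, and the unnamed ones could include others of these genes. All 10 genes, and 12 of the 14 probes, were well above background on both arrays, a flag that the scanner software sets for each spot. The arrays profiled LKS+ cells, which lack lineage antigens, carry Kit and Sca-1 and make up the primitive fraction of bone marrow (BM), called hematopoietic stem/progenitor cells (HSPCs) in the labels. The LKS+ cells of wild-type mice were propagated in serum-free medium with stem cell factor, IL-6 and IL-3 and then co-cultured for 24 h with 150 μg/ml extracellular vesicles (EVs, called exosomes in the sample labels) isolated from spleen. For control EVs the spleens came from normal mice. For CML EVs they came from mice with chronic myeloid leukemia (CML), made by transplanting LKS+ cells that carried BCR-ABL from a retrovirus together with normal BM cells into sublethally irradiated recipients. According to the methods these CML mice were irradiated again before the spleens were taken, which the labels do not mention, so that leukemia and irradiation of the EV donors cannot be told apart. All other conditions of culture were shared. The strain of the mice used for the arrays was not given in the sources used here, and whether EVs or cells were pooled from several animals was not given either.

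AP-1 is a dimer of basic leucine zipper proteins. FOS proteins cannot pair with each other and need a JUN partner, whereas JUN proteins can also pair among themselves, and ATF3 can pair with JUN or with itself. The genes are called immediate early because growth factors, cytokines and stress switch several of them on through MAP kinases and the factors SRF, ELK and CREB without new protein synthesis, and for Fos and Egr1 this burst is usually over long before a day has passed. Egr1 and Egr2 encode zinc finger factors that are induced by the same signals, and both act in monocyte and macrophage differentiation.

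The stretches of DNA before the start sites of Fos, Jun and Atf3 are shown because Fos and Atf3 lay on opposite sides of equality between the arrays and Jun encodes the partner of both. Each is the 250 bases before the annotated start in RefSeq (mouse assembly GRCm38.p6), 5′ to 3′ on the strand of the gene, with motif matches in capitals. Fos lies at chr12:85473640-85473889 on the plus strand, Jun at chr4:95052223-95052472 on the minus strand and Atf3 at chr1:191183334-191183583 on the minus strand.
Fos: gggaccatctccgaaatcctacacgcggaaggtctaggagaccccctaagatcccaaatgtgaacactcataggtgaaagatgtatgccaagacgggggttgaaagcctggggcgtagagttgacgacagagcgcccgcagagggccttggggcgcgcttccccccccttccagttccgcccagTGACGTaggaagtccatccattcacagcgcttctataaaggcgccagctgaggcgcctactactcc
Jun: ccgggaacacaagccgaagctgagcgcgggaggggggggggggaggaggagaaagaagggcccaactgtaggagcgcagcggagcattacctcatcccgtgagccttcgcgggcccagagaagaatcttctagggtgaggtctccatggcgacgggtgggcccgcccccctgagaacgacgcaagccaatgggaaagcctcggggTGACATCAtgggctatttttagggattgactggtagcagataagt
Atf3: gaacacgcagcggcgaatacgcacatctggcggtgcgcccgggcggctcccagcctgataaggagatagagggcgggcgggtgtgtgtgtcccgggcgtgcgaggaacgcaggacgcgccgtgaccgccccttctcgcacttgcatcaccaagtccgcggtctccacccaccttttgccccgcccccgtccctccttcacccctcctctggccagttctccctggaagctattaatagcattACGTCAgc

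Motifs were searched on both strands of such windows for 8 of the 10 members, Fosl1 and Egr1 being left out. They were TGACNTCA, the element bound by CREB, ATF and JUN dimers, found in 7.49% of 32851 windows of all genes, TGANTCA, the AP-1 element, in 6.75%, GCGNGGGCG, the EGR element, in 4.70%, and the CArG box, bound by SRF, in 1.47%. The shorter core TGACGT, in 6.47%, was added after the windows had been read, and it overlaps the first motif. Jun held TGACNTCA from position -45 to -38 of its start. Fos held TGACGT from -66 to -61, and Atf3 held it on the other strand from -8 to -3. It was also found in 3 of the 5 windows of Egr2, which overlap and share the site, for example from -56 to -51 on the other strand. Fosb and Fosl2 each held 1 match to the EGR element, and the windows of Junb and Jund held no match. Of the 5 windows of Egr2, which has several annotated starts, 4 held a CArG box, at 2 places on the plus strand.
Egr2, chr10:67537484-67537513: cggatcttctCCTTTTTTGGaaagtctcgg
Egr2, chr10:67537787-67537816: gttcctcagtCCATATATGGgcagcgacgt
Capitals mark the CArG box. A match is a description of the letters only, and binding was not measured here.

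The values below are scaled signals in arbitrary units, after each array had been brought to the same mean, and each ratio divides the CML EV signal by the control EV signal and is given as log2, positive where the CML EV signal was the higher one. Each condition had 1 array. No difference therefore has a replicate check, a test or a p-value, and every value describes these 2 cultures alone. Only technical errors could be given. The scanner software attaches an error to every signal, near 10% for bright spots, which for a single-spot probe gives the error quoted after ± for a log2 ratio. Probes placed on the array up to 10 times gave a smaller spread, with a median SD of the log2 ratio of 0.033 over 257 probes whose log2 signal reached 12, 0.073 over 6 probes between 8 and 12, and 0.15 over 8 dimmer probes. Signals of different probes depend on their sequence, so that genes were not ranked against each other by signal, and the 2 arrays were compared probe by probe.

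All JUN genes gave bright signals and differed little between the cultures. Jun, the founding partner of AP-1, had a control EV signal of 2804 and a CML EV signal of 3061, a log2 ratio of 0.13 ± 0.20. Junb, which is highly expressed in myeloid cells and restrains their proliferation, had 4147 and 4286, a log2 ratio of 0.048 ± 0.20. Its other probe was dim, at 75.5 and 73.8, and gave -0.033. Jund, whose transcript is held at a steady level in many resting cells, had 6615 and 5949.7, a log2 ratio of -0.15 ± 0.20, and its other probe, at 6090 and 5732, gave -0.087. Thus Jund was the 1 JUN gene on the lower side with CML EVs, and both of its probes lay there. Its ratio was beyond 2 times the spread between repeated spots of that brightness but inside the error of the scanner software, and 7.37% of the 9093 genes with a mean log2 signal of 8 or more lay lower.

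The FOS genes did not share 1 direction. Fos had a control EV signal of 471 and a CML EV signal of 394, a log2 ratio of -0.26 ± 0.20, or 1.20-fold lower. Of all genes measured on both arrays 7.74% lay lower than Fos, and of the 9093 brighter ones, among which Fos with a mean log2 signal of 8.75 was near the lower bound, 2.035% did. Fosb had 24.4 and 20.3, a log2 ratio of -0.26 ± 0.36. These signals were close to the lowest of any probe well above background, 12.95 on the control EV array and 13.6 on the CML EV array. The raw spot medians of this probe were 63 and 57 against a local background of 30 and 32. The other Fosb probe, at 2.93 and 3.01, was not well above background on either array. Fosl1, which encodes FRA1, had nearly equal signals of 64.7 and 64.2, a log2 ratio of -0.011 ± 0.22.

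Fosl2, which encodes FRA2, was the 1 FOS gene on the higher side with CML EVs, and its probes disagreed. The brighter probe had a control EV signal of 468 and a CML EV signal of 541, a log2 ratio of 0.21 ± 0.20. The other probe had 16.2 and 10.6, a log2 ratio of -0.61 ± 0.57, and was not well above background with CML EVs. For this probe the interval of the scanner software's error, from -1.73 to 0.50, lay on both sides of equality. In the methods of the study a gene is represented by its probe of highest CML EV signal, and this probe set the direction given for Fosl2. The same probe also had the highest control EV signal, whereas the mean of both probes gave a log2 ratio of -0.20. The plot of probe signals shows the signals of each probe side by side.

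**Figure D1:**
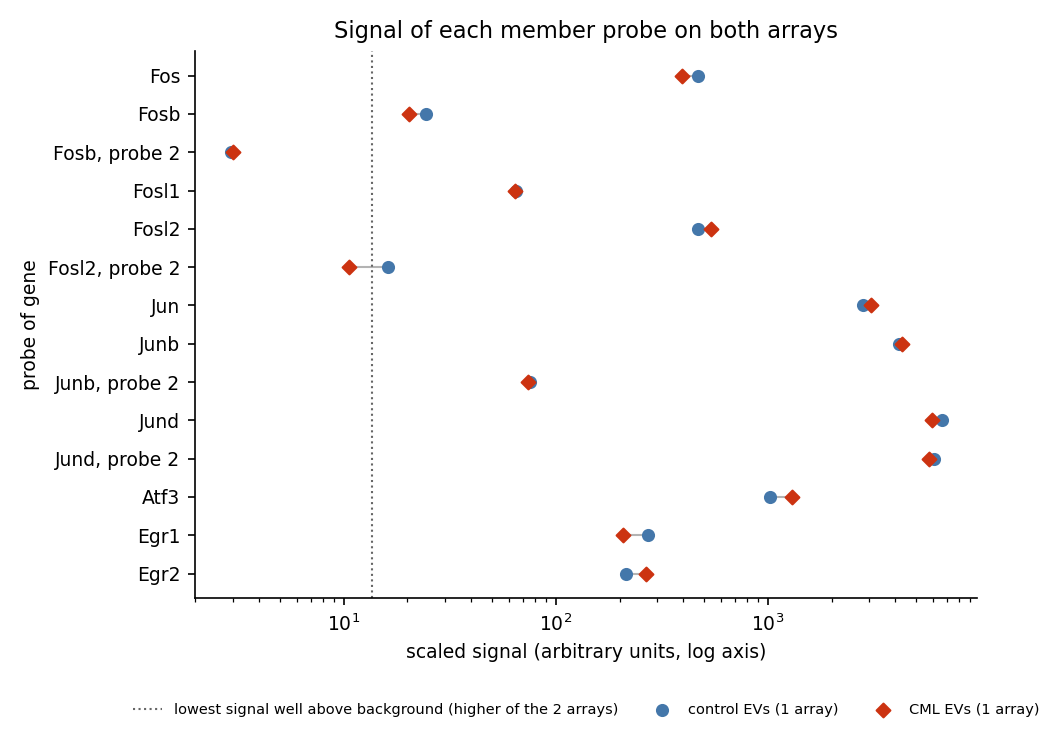
Scaled signal (log axis, arbitrary units) of the 14 named probes of the 10 genes on the control EV array (circles) and the CML EV array (diamonds), 1 array each. The dotted line at 13.6 marks the lowest signal of a probe well above background on the CML EV array. The JUN probes used lie between 2804 and 6615 and Fosb near the line, and in each row the 2 symbols lie close together.

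Atf3, Egr1 and Egr2 had the largest differences of the 10 genes. Atf3, a stress-induced factor that can repress transcription as a homodimer, had a control EV signal of 1029.6 and a CML EV signal of 1307, a log2 ratio of 0.34 ± 0.20, or 1.27-fold higher. Of the 13411 genes with a measured signal in both cultures 4.48% lay higher, and of the 9093 brighter ones 2.36%. Egr2 had 215 and 265, a log2 ratio of 0.31 ± 0.21, or 1.24-fold higher. Egr1, a factor that holds hematopoietic stem cells in quiescence, had 272 and 208, a log2 ratio of -0.39 ± 0.21, or 1.31-fold lower. Thus both EGR genes, at similar brightness, lay on opposite sides. Of all 13411 genes 3.53% lay lower than Egr1 and 5.47% lay higher than Egr2. Both fell just under the bound of 8, with mean log2 signals of 7.89 and 7.90, and of the 4318 genes below it 9.66% lay lower than Egr1 and 10.8% lay higher than Egr2. Each of these 3 genes had 1 named probe of 1 spot.

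**Figure D2:**
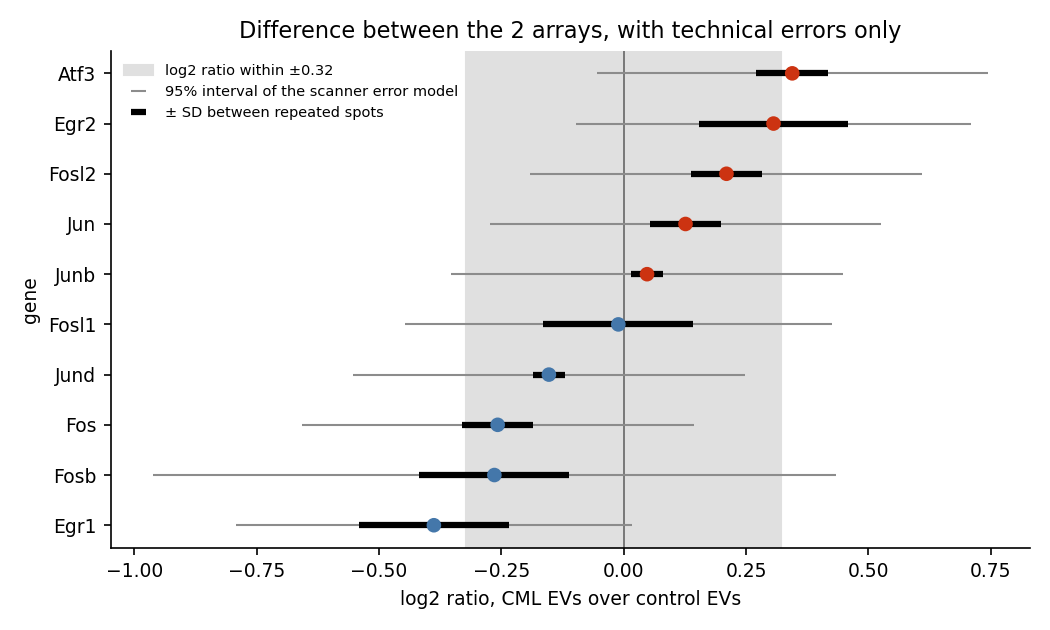
log2 ratio (CML EV to control EV signal) for each gene (points), with the 95% interval of the scanner software's error (thin lines) and the SD between repeated spots of similar brightness (thick lines), and the range between -0.32 and 0.32 shaded. All 10 thin lines cross 0, and Atf3 at 0.34 and Egr1 at -0.39 lie outside the shaded range.

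Genes were called where the log2 ratio was at least 0.32 in size, the threshold used from here on. By this rule 1 of the 10 genes was higher with CML EVs (Atf3) and 1 was lower (Egr1), while 8 lay within it. Over all 13411 genes, 5.01% were called higher and 5.25% called lower. Among the brighter genes, where Atf3 belongs, 2.64% were that much higher, and among the dimmer ones, where Egr1 belongs, 13.8% were that much lower. With 10 genes, 1 in each direction is near these background shares and is not a result about the group. The 95% interval from the scanner software's error included 0 for all 10 genes, whereas 5 of them (Atf3, Fosl2, Jund, Fos and Egr1) lay beyond 2 times the spread between repeated spots. Egr2, with a log2 ratio of 0.3061 against a spread of 0.1532, fell only just short of this. The spread used for Egr1 and Egr2 was a median over 8 dim probes, of which the largest SD was 0.47. At 1.5-fold none of the 10 was called, where 1.52% of all genes were higher and 1.18% lower.

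As a group the genes stayed centred. Of the 10, 5 lay above 0 and 5 below, against 51.9% of all genes above 0, and their median log2 ratio of 0.018 stood beside 0.0065 for all genes. Summed over the 10 genes, the signal came to 16111 (control EVs) and 16097 (CML EVs). These sums are carried by the bright JUN genes. Times before 24 h were not measured.

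**Figure D3:**
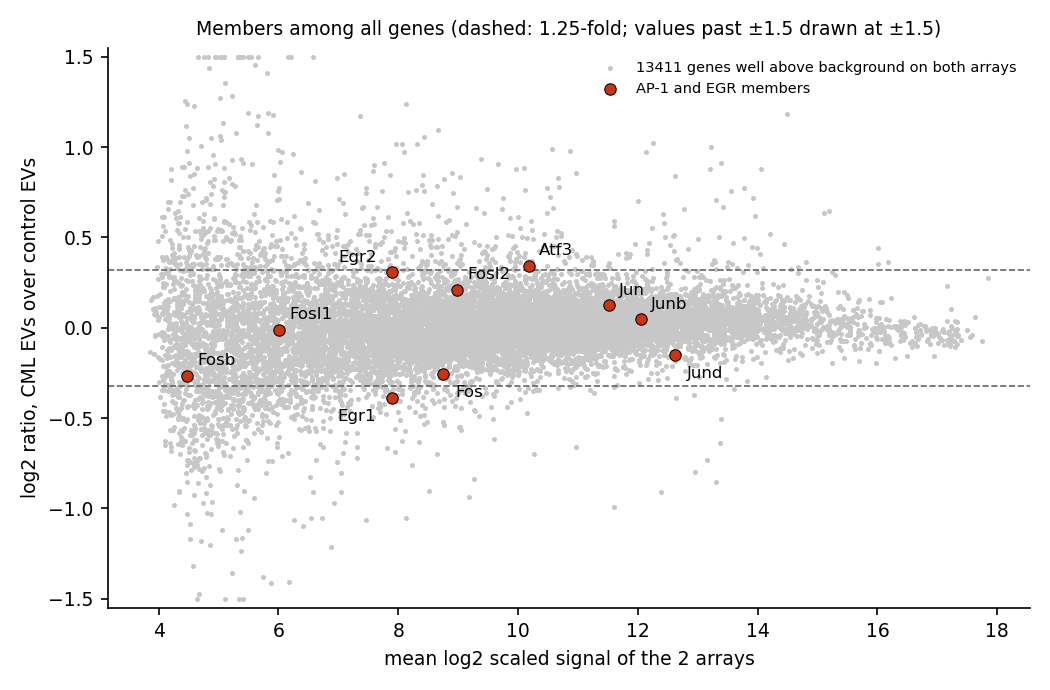
log2 ratio (CML EV to control EV signal) plotted on the mean log2 signal for 13411 genes (grey) and the 10 AP-1 and EGR genes (red, named), with dashed lines at log2 ratios of 0.32 and -0.32. Atf3 lies just above the upper line and Egr1 below the lower one, and the spread of the grey points is wider at low signals.

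The bZIP genes whose proteins can pair with FOS or JUN, or bind related elements, lay on both sides of 0. Of 17 such genes 15 were measured on both arrays, with 8 above and 7 below 0, a median log2 ratio of 0.015 and none past the threshold. Batf2, an interferon-inducible member, had signals of 201 and 238, a log2 ratio of 0.24. Jdp2, which represses AP-1 sites, had 860.4 and 988.9, a log2 ratio of 0.20. Batf gave a log2 ratio of -0.11 and Maf one of 0.13. Among EGR relatives, Egr3 (10.3 and 8.64) and Egr4 (2.76 and 2.88) were not well above background on either array. Nab2, a corepressor that EGR factors induce and that binds them, had 688 and 649, a log2 ratio of -0.083, and Nab1 had no named probe.

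Further immediate early genes also stayed centred, and the few larger differences ran both ways. Of 48 such genes 43 were measured on both arrays, with 22 above and 21 below 0 and a median log2 ratio of 0.020. None was called higher and 1 was called lower. This was Ptgs2, for cyclooxygenase 2, with dim signals of 39.9 and 25.4 and a log2 ratio of -0.65. Hbegf, a growth factor gene, had 137 and 109.7, a log2 ratio of -0.32, just inside the threshold. Dusp1, whose phosphatase switches off MAP kinases, had 522 and 647, a log2 ratio of 0.31, and Tnfaip3, for the NF-kB inhibitor A20, had 587 and 709, a log2 ratio of 0.27. Myc had 3884 and 3256, a log2 ratio of -0.25, although another of its probes gave -0.08. Ccn1, Ccn2, Arc, Npas4 and Areg were not well above background on either array.

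Nearly all listed genes of the pathways that carry the signal to these promoters were measured. Of 28 genes for MAP kinases, their activators, SRF and its partners, 27 were measured on both arrays, with 16 above and 11 below 0 and a median log2 ratio of 0.011, and none was past the threshold. Map3k1, an activator of the JNK kinases that phosphorylate JUN, had signals of 2246 and 2760.0, a log2 ratio of 0.30. Mapk11, for a p38 kinase, had 98.2 and 79.7, a log2 ratio of -0.30. Map2k1 and Mapk3, for MEK1 and ERK1, gave 0.22 and 0.20, and Braf gave 0.19. Srf itself had 1257 and 1270.4, a log2 ratio of 0.016.

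Known AP-1 target genes showed no common direction either. Of 20 such genes 16 were measured on both arrays, with 8 above and 8 below 0 and a median log2 ratio of 0.0016. Plau, for the protease urokinase, was 1.36-fold higher with CML EVs, at 168 and 229, and Ccnd1, for cyclin D1, had 96.1 and 71.9 and was 1.34-fold lower. These were the 2 past the threshold. Il1b gave a log2 ratio of -0.30, with -0.04 from another probe, the chemokine gene Ccl2 gave 0.27 and the osteopontin gene Spp1 0.17. The strip plot of lists shows the members within the range of the AP-1 target genes, from -0.42 to 0.45. Atf3, Egr1 and Egr2 lay outside the ranges of the bZIP list (-0.15 to 0.24) and the MAP kinase list (-0.30 to 0.30). Atf3 also lay above the highest of the further immediate early genes.

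**Figure D4:**
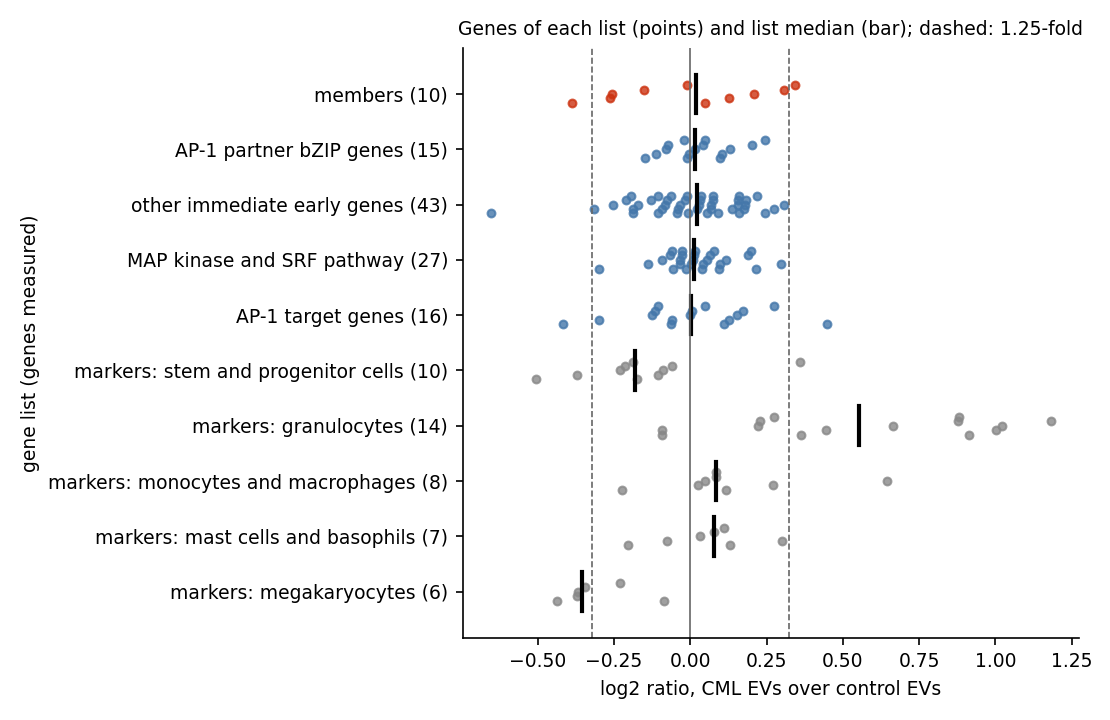
log2 ratio (CML EV to control EV signal) of each measured gene (points) in 10 lists, with list medians (black bars), the number of genes measured in parentheses and dashed lines at log2 ratios of 0.32 and -0.32. The 10 AP-1 and EGR genes have a median of 0.018, close to the 4 related lists, whereas the granulocyte markers have one of 0.55 and the megakaryocyte markers one of -0.36.

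The 2 cultures differed in markers of maturing cells, which is given here beside the AP-1 and EGR values. All 10 markers of stem and progenitor cells were well above background on both arrays, with Kit at 1647 and 1529.8. Of the genes for lineage antigens used to deplete the sort, Cd8a was not well above background on either array, and neither was the B cell gene Cd79a, whose product was not among those antigens, while Itgam, for CD11b, had 4837 and 4199 and Cd4 had 544 and 485 after culture. The probes of Itgam disagreed, with log2 ratios of -0.20 and 0.43. Of 14 granulocyte markers 12 lay above 0 and 9 were called higher with CML EVs, beside 5.01% of all genes called higher. The summed signal of these 14 came to 543022 (control EVs) and 707486 (CML EVs). The summed signal of 8 monocyte and macrophage markers was 60121 and 79925, with 7 above 0, a median log2 ratio of 0.084 and 1 called higher. That was Ly6c2, at 30095 and 47043, and without it the sums of the other 7, computed after the data were seen, were 30026 and 32883. That of 7 mast cell and basophil markers was 39415 and 42188, and that of 6 megakaryocyte markers, all of them below 0, was 70855 and 64410. Of these 6, 4 were called lower, beside 5.25% of all genes called lower. Without Pf4 the sums of the other 5, also computed after the data were seen, were 14874 and 11686. The part of these shifts in the values of Atf3, Egr1, Egr2 and Fos was not tested, and in RNA of whole cultures fewer cells of a type and less RNA per cell cannot be told apart.

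The choice of processing turned the direction of Fosl1 and Fosl2 and of no other of the 10 genes. Under 8 alternatives of scaling, background correction, source of the values and choice of probe, the log2 ratio of Atf3 lay between 0.31 and 0.41, that of Egr2 between 0.23 and 0.38, that of Fos between -0.26 and -0.19 and that of Egr1 between -0.39 and -0.32. Fosl2 turned to -0.20 with the mean of its probes. Fosl1 lay between -0.059 and 0.059, and Junb between 0.0074 and 0.12. Egr1 and Atf3 lay just past the threshold, so that their calls were lost under some alternatives.

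**Figure D5:**
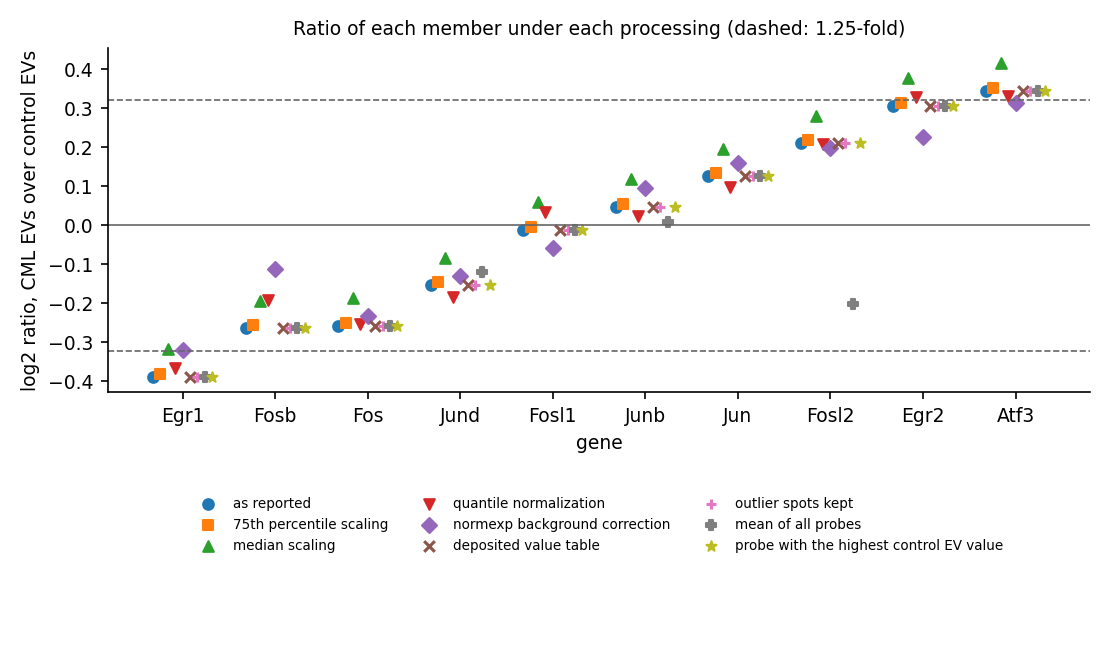
log2 ratio (CML EV to control EV signal) of each gene as reported and under 8 alternatives (symbols), with dashed lines at log2 ratios of 0.32 and -0.32. Except for Fosl1 and for Fosl2 with the mean of all probes (-0.20), every gene keeps its side of 0 under all settings drawn. For genes with 1 named probe, the choice of probe and the kept outlier spots could not move the symbol.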

How the data were processed

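RNA of 2 cultures was hybridized to 1 Agilent one-colour mouse array each. The authors' deposited scanner files give a background-subtracted intensity per spot with its error and flags (Agilent Feature Extraction 12.0.3.1, credited to the submitters' processing notes), and the authors' deposited value table gives that intensity times 1 factor per array, without a log. From the scanner intensity, control spots and outlier spots (95 and 88 of 59305) were left out, and the mean of either array was set to 2500 without the upper and lower 2% of spots, after the methods. About 54.4% and 53.3% of spots were well above background and none was saturated. Probes were named through RefSeq accessions with the gene table of GRCm38.p6 (32994 of 56604 probes). The array design refers to another assembly, so that probe positions are not given. A gene was represented by its probe of highest CML EV signal. Precision is limited by having 1 array for each condition, and nothing was tested. Genes were called at a log2 ratio of 0.32 in either direction.

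The 10 genes and all lists were chosen with earlier results of these data known. All 10 genes were described, and of each related list the 5 genes with the largest absolute log2 ratio among those well above background on both arrays, as well as all EGR relatives and NAB corepressors. Single values of some listed genes are not reported here. Srf and the genes not above background were named in addition, after their values were seen. Alternatives covered scaling, normexp background correction with an offset of 50 (limma 3.58.1, R 4.3.3, on spot medians), the deposited table, outlier flags, the choice of probe, the fold threshold and the filter on dim probes. The scaling and counting steps were tested on simulated data. Python 3.11.15, numpy 2.4.6, pandas 2.3.3 and matplotlib 3.10.9 were used.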

Additional observations from a re-analysis of the deposited data

How the results depend on the processing

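No paired analysis was possible because the study holds a single array for either condition. The count of AP-1 and EGR genes called higher with CML EVs (1) was 2 with median scaling and with quantile normalization, where Egr2 joined Atf3, and 0 with normexp and at thresholds of 1.5-fold and 2-fold. The count called lower (1) was 0 with median scaling, with normexp and at both higher thresholds. The median log2 ratio of the 10 genes (0.018) was -0.066 with the mean of all probes, where Fosl2 gave -0.20. Median scaling raised the median of all genes to 0.077 and shifted the shares called higher and lower among all genes from 5.01% and 5.25% to 7.38% and 3.50%. With normexp, whose offset draws dim ratios toward 0, these shares were 2.59% and 1.19%. The deposited values, the 75th percentile, outlier spots kept, the probe with the highest control EV value and both other filters on dim probes left the counts at 1 and 1. The filters could not change them, because all 10 genes were well above background on both arrays. Probe choice and kept outlier spots could not move Atf3 or Egr1, each with 1 named probe of 1 spot. The deposited values repeated the reported ones. Beyond what thresholds and offsets do by construction, the cause was not tested. Signals of Fosb and of the dimmer Fosl2 probe lay near background, which limits their ratios most.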
